A study of Mus musculus with 6 samples.

Results

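The genes of Wnt signaling studied here were 62 of the 54532 genes in the count table of eWAT, the epididymal depot of white adipose tissue. They were chosen by name and protein-coding biotype. They comprise the Wnt ligands with the secretion factors Porcn and Wls, the Frizzled (Fzd) receptors with Lrp5 and Lrp6, the R-spondins (Rspo) with Lgr4 to Lgr6, Rnf43 and Znrf3, the extracellular inhibitors of the Sfrp and Dkk families with Wif1, Notum and Apcdd1, and the intracellular genes Axin1, Axin2, Nkd1, Nkd2, Ctnnb1, Tcf7, Tcf7l1, Tcf7l2 and Lef1. RNA-seq was carried out on eWAT of 3 cachectic and 3 control mice, all male C57BL/6. Cachexia was induced by injecting LLC (Lewis lung carcinoma) cells, which come from a mouse lung tumor, under the skin, and mice with marked loss of body weight were called cachectic. The others are labelled only as control mice, and the study set them against tumor-bearing mice. Tissue was taken on day 21. The mice were 6 to 10 weeks old when obtained, and whether the controls received a sham injection is not given in the sources used here.

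Wnt ligands are lipid-modified secreted proteins that bind Frizzled receptors. In the canonical branch, Frizzled acts with the co-receptors LRP5 or LRP6 to stabilize β-catenin, which then activates genes with TCF/LEF factors, and Axin2 is one such target and also a brake on the pathway. R-spondins sustain Frizzled at the cell surface, whereas secreted inhibitors bind the ligands or the co-receptors. In fat, canonical Wnt signaling is best known for restraining the formation of adipocytes from progenitors.

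Total counts lay between 14928766 and 18855546 per mouse, and every control total was above every cachexia total. Expression is given as CPM, counts scaled to the normalized library size. The label of the tissue was checked with adipocyte markers, whose summed level was 28206 to 36086 CPM in control mice and 29874 to 46397 CPM in cachectic mice. Control replicate 1 stood apart from the other 5 mice. It had 935 counts of Epcam and 344 of Cdh1, genes of epithelial cell adhesion, whereas the other mice had at most 11 and 27. A list of 4 epithelial markers summed to 65.4 CPM in this mouse and to at most 2.24 CPM in the others. Epcam and Cdh1 gave 46.9 and 17.3 CPM of the 65.4 CPM, and Krt5 gave 0.753 CPM. Krt14 was not highest in this mouse, with 0.502 CPM against 0.918 CPM in cachexia replicate 3. In the same mouse, 218 genes with at least 10 counts were at least 8-fold above every other mouse, while each other mouse had 0 to 4 such genes. A list of 9 epididymal markers reached 4.62 CPM in control replicate 1 and 0.676 to 1.52 CPM elsewhere. Adam7 alone gave 3.06 CPM of the sum in control replicate 1, and none of the 9 had enough counts to be tested. Crisp1, Lcn8, Lcn9 and Rnase10 were each higher in another mouse, and Cst11 had 0 counts in all mice. For the Wnt genes that passed the test threshold below, estimates are therefore given with and without it.

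Of the 62 genes, 39 had enough counts to be tested and 23 did not. Of the 39, 34 exceeded the cutoff of 0.559 CPM in all 6 mice, and 4 (Wnt4, Wnt10b, Sfrp4 and Tcf7) exceeded it in all 3 controls but in fewer than 3 cachectic mice, so that their direction was partly set by the filter. None did so the other way round. In cachectic mice 8 of the 39 fell and 0 rose, judged by edgeR's quasi-likelihood test with Benjamini-Hochberg adjustment over 16003 genes and a threshold of 0.05. The 8 were Axin2, Fzd5, Fzd4, Rspo3, Wnt5a, Wnt4, Tcf7 and Sfrp1. They were 20.5% of the tested Wnt genes, while 8.63% of all tested genes were lower and 17.6% were called in either direction (1381 lower and 1440 higher). At an unadjusted p-value under 0.05, 15 Wnt genes were lower and 0 were higher in edgeR, beside 2721 lower and 2777 higher among all 16003 tested genes. After adjustment, DESeq2 called 13 Wnt genes lower and 0 higher, beside 12.1% of all genes lower and 12.3% higher. The median log2 fold change was -0.56 over the tested Wnt genes and -0.0031 over all tested genes. Estimates were negative for 28 Wnt genes and positive for 11. In 18 of the 39 all cachectic mice were below all control mice, and in 0 they were above, while 20.1% of all tested genes were separated downward and 20.4% upward.

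**Figure D1:**
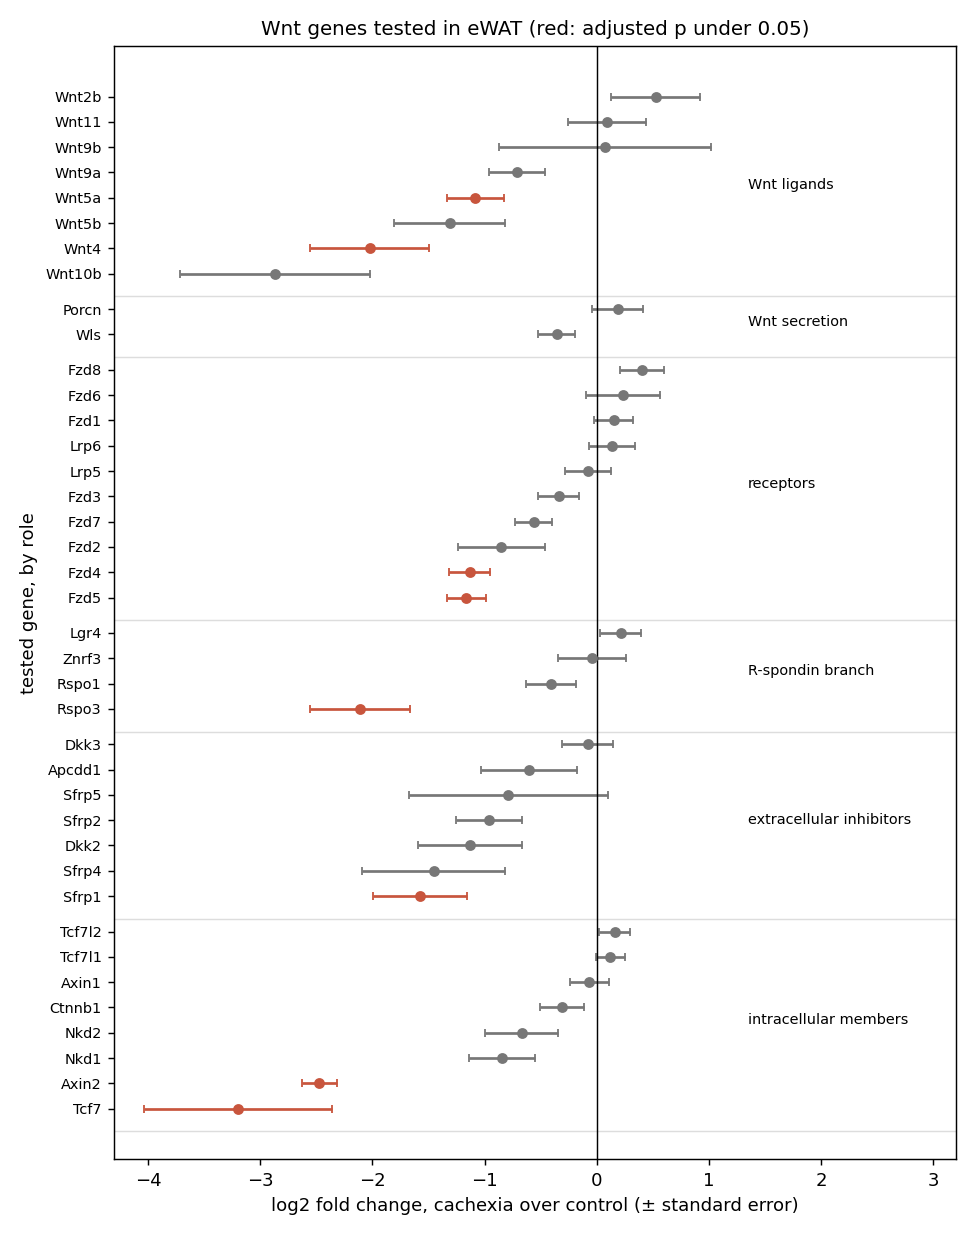
Log2 fold change of cachectic over control mice (horizontal axis) for each of the 39 tested Wnt genes (vertical axis, grouped by role), with bars for the standard error and red for an adjusted p-value under 0.05 in edgeR. The 8 red genes all lie left of 0, from -3.20 for Tcf7 to -1.08 for Wnt5a, and gray genes lie on both sides.

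Without control replicate 1, edgeR retained Axin2, Fzd4, Fzd5 and Rspo3, and these 4 were the only Wnt genes called, while 6.63% of all tested genes were lower and 6.73% higher. The 4 calls that did not pass were Wnt5a, Sfrp1, Tcf7 and Wnt4, and each kept a negative estimate. The estimate of Tcf7 moved most among the 8, from -3.20 to -1.71. Among genes not called, Fzd6 moved from 0.23 to 0.71 (adjusted p = 0.0767 in edgeR) and Sfrp4 from -1.45 to -1.71. Wnt5b moved from -1.31 to -0.72, Dkk2 from -1.13 to -0.65 and Wnt2b from 0.53 to 0.19. DESeq2 without control replicate 1, an alternative added after the data were seen, called 9 Wnt genes lower and 1 higher (Fzd6), beside 9.95% of all genes lower and 10.6% higher. Leaving out other mice also ended some calls in edgeR. Rspo3 did not pass without control replicate 3 or without cachexia replicate 1 or 2, with adjusted p-values up to 0.0617. Wnt5a did not pass when any of the 3 controls was left out, or without cachexia replicate 3 (adjusted p-values up to 0.0867). Sfrp1 was lost without control replicate 1 or 3 or cachexia replicate 2 or 3 (up to 0.105), Wnt4 without control replicate 1 or 3 or cachexia replicate 1 or 2 (up to 0.102), and Tcf7 without control replicate 1 or any of the cachectic mice (up to 0.103). Axin2, Fzd4 and Fzd5 passed whichever mouse was left out. Because the tissue was sequenced in bulk, fewer cells of a type and less RNA per cell cannot be told apart in any of these results.

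**Figure D2:**
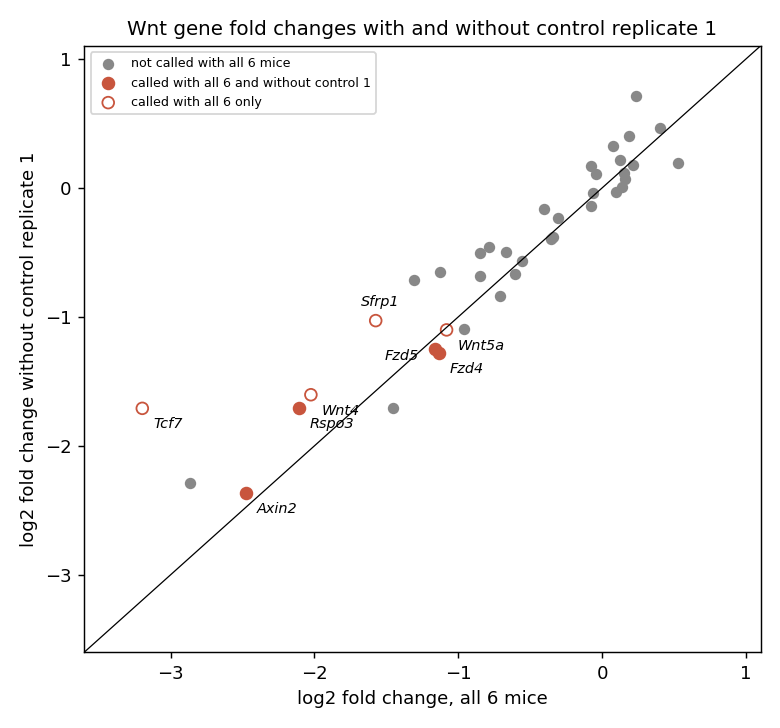
Log2 fold changes of the 39 tested Wnt genes with all 6 mice (horizontal axis) and without control replicate 1 (vertical axis), with a line of equality. Filled red points passed an adjusted p-value of 0.05 in edgeR both ways, and open red points passed with all 6 mice only. Tcf7 lies farthest from the line among the called genes, at -3.20 against -1.71.

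Axin2 encodes a scaffold of the β-catenin destruction complex and is a widely used readout of canonical Wnt activity. The gene lies on chromosome 11 from 108920349 to 108950783 (GRCm38). Values are given in the order of replicates 1, 2 and 3 here and for the genes that follow. Controls had 81.7, 61.6 and 71.0 CPM, and cachectic mice had 14.2, 12.8 and 11.6 CPM. The lowest control was far above the highest cachectic mouse. Means were 71.4 ± 10.04 CPM in controls and 12.9 ± 1.29 CPM in cachectic mice (SD, n = 3 in each group). Axin2 fell by 2.47 on the log2 scale (standard error 0.16, edgeR adjusted p = 0.000878), or 5.55-fold. Without control replicate 1 it was -2.37 (adjusted p = 0.00259 in edgeR). The antisense gene Gm11670 covers 209 of its 5506 exon bases (3.8%), and the strand setting of the counting was not given in the sources used here. Axin1, the constitutive form of the scaffold, had 42.8, 40.9 and 40.0 CPM in controls and 44.4, 44.3 and 29.4 CPM in cachectic mice. Its groups overlapped, with a difference of -0.07 on the log2 scale (edgeR adjusted p = 0.824, standard error 0.18).

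The sequences before the start sites of Axin2, Fzd4 and Fzd5 are printed because these 3 genes were called in every setting tried. That of Wnt5b, which was not called, is printed as an example with a TCF/LEF core motif. Wnt11 and Dkk1 also have such a sequence, which is not printed. The printed sequences are the 250 bases before the start of a RefSeq transcript in GRCm38.p6. They are written 5′ to 3′ on the gene's strand, with the motif CTTTGAT or CTTTGAA in capitals where present. The Axin2 sequence is at chr11:108920099-108920348 (plus strand), Fzd4 at chr7:89404116-89404365 (plus strand), Fzd5 at chr1:64737751-64738000 (minus strand) and Wnt5b at chr6:119449387-119449636 (minus strand).
Axin2: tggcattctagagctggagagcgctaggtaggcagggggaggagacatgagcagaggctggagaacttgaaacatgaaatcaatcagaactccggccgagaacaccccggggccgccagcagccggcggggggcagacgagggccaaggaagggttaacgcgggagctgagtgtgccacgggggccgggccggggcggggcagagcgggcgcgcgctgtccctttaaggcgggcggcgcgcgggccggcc
Fzd4: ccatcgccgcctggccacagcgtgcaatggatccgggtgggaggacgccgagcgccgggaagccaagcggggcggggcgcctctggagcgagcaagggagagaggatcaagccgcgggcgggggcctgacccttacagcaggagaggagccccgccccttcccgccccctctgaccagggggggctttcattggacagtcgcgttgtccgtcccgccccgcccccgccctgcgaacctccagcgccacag
Fzd5: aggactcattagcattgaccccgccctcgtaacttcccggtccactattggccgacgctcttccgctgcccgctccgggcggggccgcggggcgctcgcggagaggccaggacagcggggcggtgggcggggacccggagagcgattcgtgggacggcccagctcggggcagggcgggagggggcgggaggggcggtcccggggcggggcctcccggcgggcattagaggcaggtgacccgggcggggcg
Wnt5b: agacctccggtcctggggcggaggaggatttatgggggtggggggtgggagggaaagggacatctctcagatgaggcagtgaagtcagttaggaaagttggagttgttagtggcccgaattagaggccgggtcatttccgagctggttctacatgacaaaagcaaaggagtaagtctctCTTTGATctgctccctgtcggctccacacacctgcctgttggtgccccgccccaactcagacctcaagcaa

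Windows of 300 bases, from 250 before to 50 after the start, were searched for both motif forms on both strands. RefSeq windows were matched for 40 of the 62 genes, with 50 windows in all. Of the 3 windows of Wnt5b, 1 held the motif, as did 1 of those of Wnt11 and that of Dkk1. The motif was thus in 3 of the 50 (6%), and in 2842 of 32851 windows of all genes (8.65%). It was not in the windows of Axin2, Fzd4, Fzd5, Wnt4 or Tcf7. These windows were rich in G and C, with 70% in Axin2, 72.7% in Fzd4 and 75.7% in Fzd5, against a median of 67% over the 50 Wnt windows and 52.7% over all windows. Windows for Wnt5a, Rspo3 and Sfrp1 were not used here.

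Among intracellular genes, the other call was Tcf7, which encodes TCF-1, a DNA-binding partner of β-catenin that is abundant in T cells. Tcf7 is on chromosome 11 from 52252371 to 52283014. Controls had 14.6, 2.46 and 2.10 CPM, and cachectic mice had 0.875, 0.798 and 0.393 CPM. The groups did not overlap, but control replicate 1 was far above the other controls. Means were 6.39 ± 7.12 CPM in controls and 0.689 ± 0.259 CPM in cachectic mice (SD, n = 3 in each group). Tcf7 fell, with an estimate of -3.20 on the log2 scale (standard error 0.84, edgeR adjusted p = 0.0369). Without that mouse it was -1.71 (adjusted p = 0.0541 in edgeR). Summed T and B cell markers were 14.5 CPM in control replicate 1, 9.57 and 18.1 CPM in the other controls and 4.72 to 11.5 CPM in cachectic mice, and their part in the result was not tested.

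The remaining intracellular genes did not pass the threshold. Ctnnb1, which encodes β-catenin, had the highest level per gene length of this role, at a mean of 67.5 CPM per kb over the 6 mice, followed by Axin1 at 10.5 CPM per kb. Ctnnb1 had 429, 367 and 368 CPM in controls and 331, 369 and 239 CPM in cachectic mice. Cachexia replicate 2 was within the control range, and the estimate was -0.31 (edgeR adjusted p = 0.303, standard error 0.20). Tcf7l1 and Tcf7l2, the TCF genes typical of non-lymphoid tissue, had log2 fold changes of 0.12 and 0.16, with standard errors of 0.13 and 0.14. Nkd1 and Nkd2, which encode Dishevelled-binding antagonists, had estimates of -0.85 (standard error 0.29) and -0.67 (standard error 0.32), with adjusted p-values of 0.0846 and 0.187 in edgeR. Lef1 was not tested, with 35 counts in control replicate 1 and at most 15 elsewhere.

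**Figure D3:**
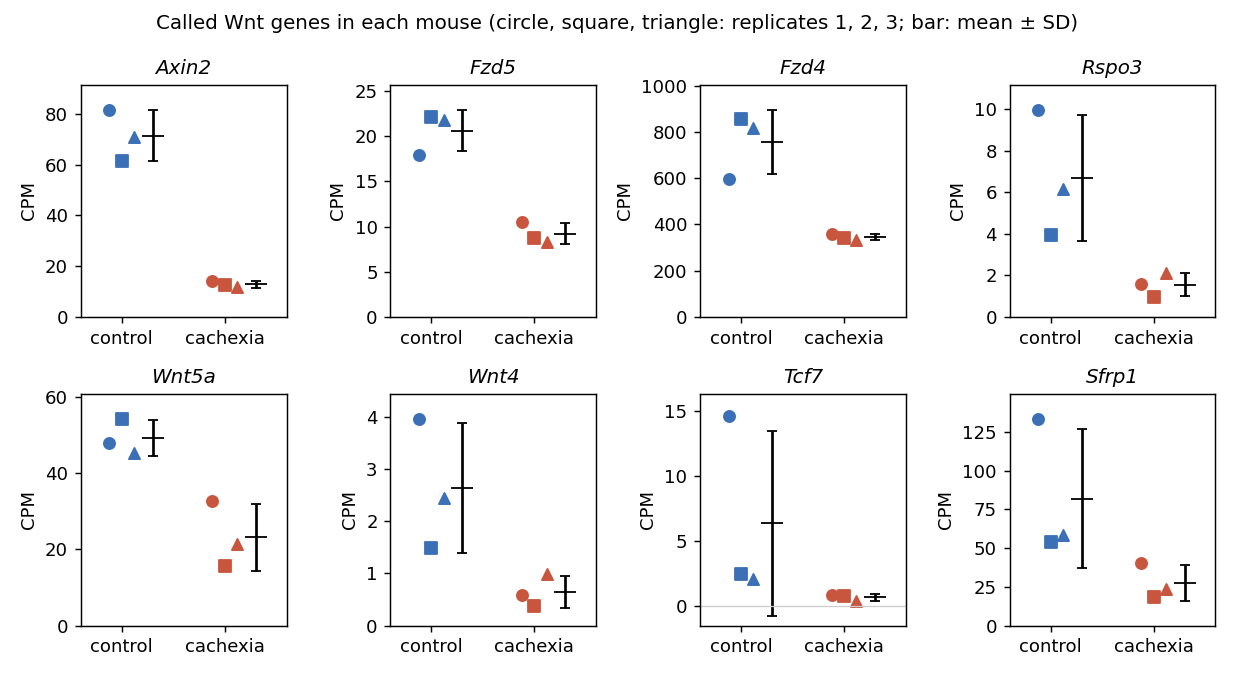
Expression in CPM (vertical axis, starting at or below 0) of the 8 called Wnt genes in each control and cachectic mouse, with black bars for the mean and SD. No cachectic mouse reached a control mouse in any panel. Control replicate 1 (circle) is the highest control for Axin2, Rspo3, Wnt4, Tcf7 and Sfrp1.

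Fzd4 was the most abundant of the 12 receptor genes, at a mean of 82.0 CPM per kb over the 6 mice. It encodes a receptor for Wnt ligands and for Norrin, known for its role in retinal vessels. The gene lies on chromosome 7 from 89404355 to 89413134. Controls had 598, 855 and 819 CPM, and cachectic mice had 359, 342 and 334 CPM. The cachectic values were within a narrow band below all controls, and control replicate 1 was the lowest control. Means were 757 ± 139 CPM in controls and 345 ± 12.7 CPM in cachectic mice (SD, n = 3 in each group). Fzd4 fell by 1.13 on the log2 scale (standard error 0.19, edgeR adjusted p = 0.00814), and the estimate was -1.28 (adjusted p = 0.00708 in edgeR) without control replicate 1. Of 9 endothelial markers, 4 were higher and 0 lower in edgeR, beside 1440 higher and 1381 lower among all 16003 tested genes. Their summed level was 1650 to 1768 CPM in controls and 2385 to 3532 CPM in cachectic mice. Which cells of eWAT carry Fzd4 RNA was not tested, and neither was the part of endothelial cells in the Fzd4 result.

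Fzd5 had a lower level, at 2.16 CPM per kb, and a fold change close to that of Fzd4. It encodes another Wnt receptor and lies on chromosome 1 from 64730558 to 64737751. Expression was 18.0, 22.1 and 21.8 CPM in controls and 10.5, 8.78 and 8.33 CPM in cachectic mice. The groups were separated, with a mean of 20.6 ± 2.30 (SD, n = 3) CPM in controls and 9.20 ± 1.15 (SD, n = 3) CPM in cachectic mice. Fzd5 fell, with an estimate of -1.16 on the log2 scale (standard error 0.17, edgeR adjusted p = 0.00581), and -1.25 (adjusted p = 0.00977 in edgeR) without control replicate 1. Gm38058, an unverified transcript on the other strand, covers 1233 of the 6915 exon bases of Fzd5 (17.8%). Reads in that stretch can come from either gene, and how they were counted is not given in the sources used here.

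The other 8 tested receptor genes did not pass. The co-receptor Lrp5, at 13.7 CPM per kb, was next to Fzd4 in level. It had 126, 139 and 146 CPM in controls and 150, 149 and 90.4 CPM in cachectic mice, with overlapping groups and a difference of -0.08 on the log2 scale (edgeR adjusted p = 0.822, standard error 0.21). Lrp6 (12.7 CPM per kb) had an estimate of 0.14 (standard error 0.21). Fzd7 came nearest to the threshold. Its expression was 30.5, 32.0 and 29.7 CPM in controls and 24.6, 21.2 and 16.7 CPM in cachectic mice, without overlap, at a log2 fold change of -0.56 (adjusted p = 0.0534 in edgeR). Fzd2 (-0.85) and Fzd3 (-0.34) had negative estimates, whereas Fzd1 (0.15), Fzd6 (0.23) and Fzd8 (0.40) had positive ones, with adjusted p-values from 0.165 to 0.66 in edgeR. Fzd9 and Fzd10 were not tested and reached at most 12 and 16 counts.

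Among ligands, Wnt5a and Wnt4 fell. Wnt5a encodes the ligand best known for signaling without β-catenin and lies on chromosome 14 from 28504750 to 28527448. Controls had 47.9, 54.3 and 45.3 CPM, and cachectic mice had 32.8, 15.5 and 21.3 CPM. All cachectic mice were below all controls, with cachexia replicate 1 closest to them. Means were 49.2 ± 4.61 CPM in controls and 23.2 ± 8.78 CPM in cachectic mice (SD, n = 3 in each group). Wnt5a fell by 1.08 on the log2 scale (standard error 0.26, edgeR adjusted p = 0.0265). Without control replicate 1 the estimate was -1.10, at an adjusted p = 0.0521 in edgeR. The antisense gene Gm2670 covers 358 of its 7823 exon bases (4.58%).

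Wnt4, which encodes a ligand of kidney and reproductive tract development, lies on chromosome 4 from 137277489 to 137299726 and was expressed at a low level. Its values were 3.96, 1.49 and 2.44 CPM in controls and 0.583, 0.368 and 0.983 CPM in cachectic mice. The groups did not overlap, and control replicate 1 was the highest mouse. Means were 2.63 ± 1.25 CPM in controls and 0.645 ± 0.312 CPM in cachectic mice (SD, n = 3 in each group). Wnt4 fell by 2.02 on the log2 scale (standard error 0.53, edgeR adjusted p = 0.0369), and the estimate was -1.60 (adjusted p = 0.0887 in edgeR) without control replicate 1. It was under the count cutoff in cachexia replicate 2.

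Wnt2b had the highest level of the ligands, at 6.69 CPM per kb, ahead of Wnt5a at 4.63 CPM per kb. Wnt2b had 11.1, 32.8 and 25.3 CPM in controls and 43.9, 33.7 and 21.8 CPM in cachectic mice. The groups overlapped, with a difference of 0.53 on the log2 scale (edgeR adjusted p = 0.387, standard error 0.40). Wnt10b, known as an inhibitor of adipocyte formation, had 2.81, 0.802 and 1.47 CPM in controls and 0.292, 0 and 0.393 CPM in cachectic mice. Its groups did not overlap, but the estimate of -2.87 had a standard error of 0.85 and an adjusted p = 0.0536 in edgeR. Wnt5b, a close relative of Wnt5a, had an estimate of -1.31 (adjusted p = 0.105 in edgeR), with 11.6 CPM in control replicate 1, 3.78 and 5.44 CPM in the other controls and 1.97 to 4.20 CPM in cachectic mice. Wnt9a, at -0.71 (adjusted p = 0.0882 in edgeR), had 8.48 to 12.6 CPM in controls and 5.51 to 7.93 CPM in cachectic mice. Wnt9b and Wnt11 had estimates of 0.07 and 0.09, with standard errors of 0.94 and 0.35.

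The secretion factors were measured in every mouse. Wls, which carries Wnt ligands to the cell surface, had 120, 137 and 125 CPM in controls and 118, 101 and 79.4 CPM in cachectic mice, at 12.9 CPM per kb over all mice. The groups were just separated, and the log2 fold change of -0.35 (standard error 0.17) had an adjusted p = 0.175 in edgeR. Porcn encodes the enzyme that adds the lipid to Wnt ligands. It had 20.6, 11.6 and 16.1 CPM in controls and 16.9, 16.8 and 21.5 CPM in cachectic mice. Its groups overlapped, with an estimate of 0.19 (standard error 0.23).

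The other 11 ligand genes were not tested. Wnt3a, Wnt8a and Wnt16 had 0 counts in all mice, which allows up to 3 counts per library, or 0.151 to 0.197 CPM. Wnt6 had 83 counts in control replicate 1 and at most 13 elsewhere, and Wnt7b had 24 and at most 7. Wnt3 had 6 counts in that mouse and 0 elsewhere. Wnt1, Wnt2, Wnt7a, Wnt8b and Wnt10a reached at most 8 counts in any mouse.

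Rspo3 was the call of the R-spondin branch. It encodes a secreted enhancer of Wnt signaling and lies on chromosome 10 from 29452416 to 29535867. Controls had 9.98, 3.95 and 6.18 CPM, and cachectic mice had 1.57, 0.983 and 2.10 CPM. The groups did not overlap, and control replicate 1 was the highest mouse. Means were 6.71 ± 3.05 CPM in controls and 1.55 ± 0.558 CPM in cachectic mice (SD, n = 3 in each group). Rspo3 fell by 2.11 on the log2 scale (standard error 0.45, edgeR adjusted p = 0.0188), and the estimate was -1.71 (adjusted p = 0.0397 in edgeR) without control replicate 1. The antisense gene Gm48159 covers 404 of its 3090 exon bases (13.1%).

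Rspo1 and the receptor gene Lgr4 were the most abundant of this branch, at 19.2 and 12.1 CPM per kb. Rspo1 had 55.5, 35.9 and 35.8 CPM in controls and 35.8, 24.8 and 35.3 CPM in cachectic mice. The lowest control and the highest cachectic mouse were nearly equal, and the log2 fold change of -0.41 (standard error 0.22) had an adjusted p = 0.239 in edgeR. Lgr4 had 63.0, 55.1 and 79.7 CPM in controls and 70.5, 67.2 and 91.9 CPM in cachectic mice, with overlapping groups and an estimate of 0.21 (standard error 0.18). Znrf3, which encodes a ubiquitin ligase that removes Frizzled from the cell surface, had an estimate of -0.04 (standard error 0.30).

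The related ligase gene Rnf43 was not tested. It had 231 counts in control replicate 1 and 3 to 6 in each of the others. Lgr6 had 23 counts in control replicate 1 and at most 7 elsewhere, Lgr5 had at most 8, and Rspo2 and Rspo4 had at most 4 and 1. The inhibitor gene Notum, which encodes an enzyme that strips the lipid from Wnt ligands, had 103 counts in control replicate 1 and 0 in the others. Wif1, which encodes a Wnt-binding protein, had 22 counts in the same mouse and at most 2 elsewhere. The counts of Rnf43, Lgr6, Notum and Wif1 were high in the same single mouse as those of Epcam and Cdh1. The part of the epithelial RNA in them was not tested.

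**Figure D4:**
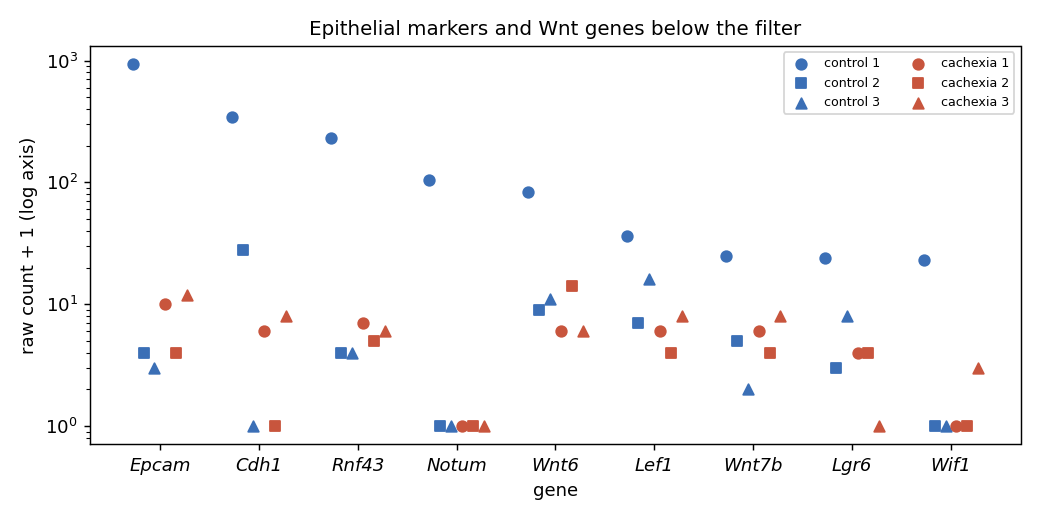
Raw counts plus 1 (vertical log axis) of the epithelial markers Epcam and Cdh1 and of 7 Wnt genes that were not tested, in each of the 6 mice. Control replicate 1 (blue circle) is highest for all 9 genes, with 231 counts of Rnf43 and 103 of Notum against at most 6 and 0 in the other mice.

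Sfrp1 was the call among the extracellular inhibitors. It encodes a secreted Frizzled-related protein that binds Wnt ligands and lies on chromosome 8 from 23411502 to 23449632. Controls had 134, 54.1 and 58.2 CPM, and cachectic mice had 40.6, 18.4 and 23.5 CPM. All cachectic mice were below all controls, and control replicate 1 was more than the sum of the other controls. Means were 82.0 ± 44.7 CPM in controls and 27.5 ± 11.6 CPM in cachectic mice (SD, n = 3 in each group). Sfrp1 fell by 1.57 on the log2 scale (standard error 0.42, edgeR adjusted p = 0.0378). Without control replicate 1 it was -1.03 (adjusted p = 0.071 in edgeR).

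Estimates were negative for all 7 tested inhibitors, but 6 of them did not pass. Apcdd1, which encodes a membrane-bound inhibitor, had the highest level, at 63.7 CPM per kb, ahead of Sfrp1 at 12.5 CPM per kb. Apcdd1 had 196, 221 and 229 CPM in controls and 256, 96.8 and 71.5 CPM in cachectic mice. Cachexia replicate 1 was above every control and the other cachectic mice were below every control, and the estimate was -0.60 (edgeR adjusted p = 0.356, standard error 0.43). Sfrp2 had 20.3, 29.3 and 25.0 CPM in controls and 16.2, 14.7 and 7.34 CPM in cachectic mice, without overlap, at -0.96 (adjusted p = 0.0586 in edgeR). Sfrp4 (-1.45) and Dkk2 (-1.13) also had separated groups, with adjusted p-values of 0.151 and 0.129 in edgeR. Sfrp5, a secreted Wnt inhibitor produced by adipocytes, ranged from 9.17 to 27.0 CPM in controls and from 0.553 to 20.7 CPM in cachectic mice, with an estimate of -0.79 (standard error 0.88). Dkk3 had an estimate of -0.08 (standard error 0.23). Dkk1 and Dkk4 had 0 counts in all mice.

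Summed over the genes of each role, levels per gene length differed between roles in whether the groups overlapped. The receptor sum was 149.888, 188.579 and 180.076 CPM per kb in controls and 122.377, 111.732 and 94.2 CPM per kb in cachectic mice, without overlap, and Fzd4 was its largest component in every mouse. The ligand sum was 19.7 to 22.7 CPM per kb in controls, 21.2 CPM per kb in cachexia replicate 1 and 14.1 and 12.5 CPM per kb in the other cachectic mice. The inhibitor sum was 115.184 to 133.645 CPM per kb in controls, 119.648 CPM per kb in cachexia replicate 1 and 50.5 and 49.3 CPM per kb in the other cachectic mice. In both sums, cachexia replicate 1 was within the range of the controls. The R-spondin branch overlapped too, with 30.6 to 46.5 CPM per kb in controls and 26.7 to 35.5 CPM per kb in cachectic mice. The secretion sum (19.5 to 20.5 against 16.2 to 19.1 CPM per kb) and the intracellular sum (110.087 to 132.692 against 72.0 to 100.604 CPM per kb) were separated.

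**Figure D5:**
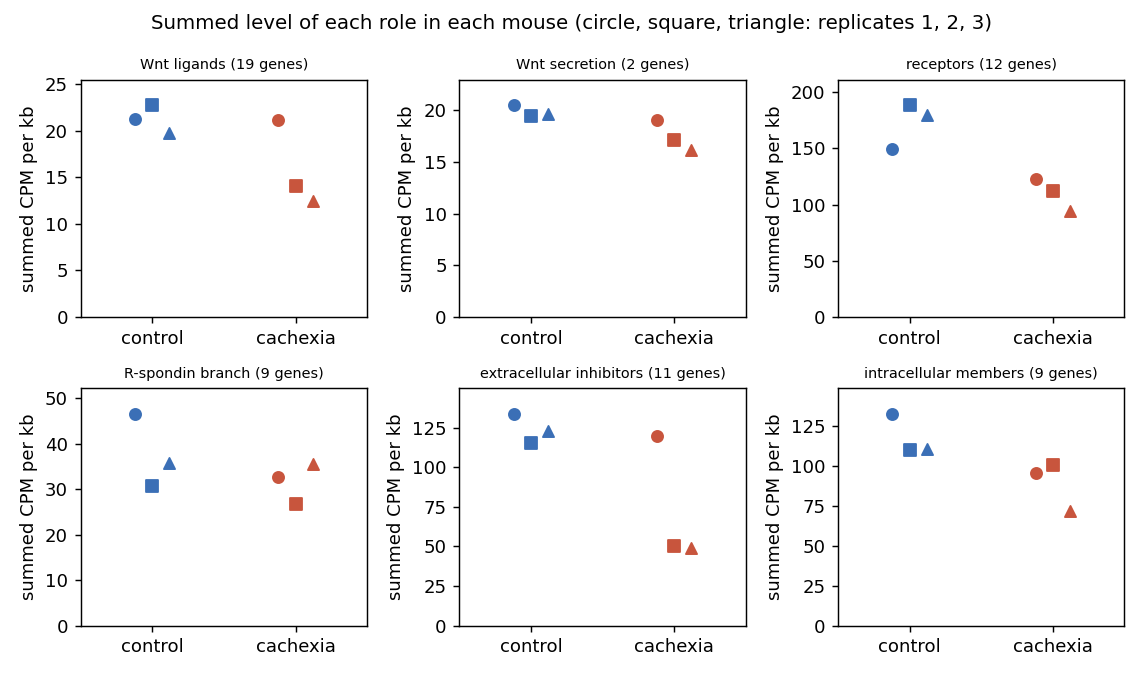
Summed CPM per kb of gene length (vertical axis, from 0) of the Wnt genes of each role in each control and cachectic mouse. The receptor, secretion and intracellular sums do not overlap between groups. Cachexia replicate 1 (red circle) lies beside the controls in the ligand and inhibitor panels, at 21.2 and 119.648 CPM per kb.

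Some cell type markers moved with these genes, and their part in the results was not tested. Of 13 fibroblast and fat progenitor markers, 6 fell (Pi16, Lum, Col1a1, Col3a1, Col15a1 and Fn1) and 0 rose in edgeR. The summed level of that list was 17798 to 19854 CPM in controls, 15033 CPM in cachexia replicate 1 and 6800 and 9014 CPM in the other cachectic mice. Cachexia replicate 1 was thus the highest cachectic mouse in this list as in the ligand and inhibitor sums. Most of the list sum came from Gsn, which was not called. Gsn had 10694 to 12446 CPM in controls and 11394, 3831 and 6453 CPM in cachectic mice. All 6 markers that fell were lower in cachexia replicate 1 than in every control. Most of the inhibitor sum in that mouse came from Apcdd1, at 91.5 CPM per kb. The progenitor marker Dcn had a log2 fold change of -0.06. Of 8 mural markers, Rgs5 fell, and the sum was 1197 to 1457 CPM in controls and 685 to 1090 CPM in cachectic mice. None of 10 mesothelial markers was called, and their sums overlapped (425 to 474 and 214 to 483 CPM). In that list Krt8, Krt18 and Krt19 were highest in control replicate 1, at 94.7, 43.2 and 48.6 CPM. Elsewhere they had at most 20.1, 12.8 and 33.0 CPM. The other mesothelial markers were each higher in another mouse. Of 11 adipocyte markers 2 rose and 1 fell, and of 7 macrophage markers 1 rose and 1 fell. Neutrophil markers rose in 6 of 7 tested and erythroid markers in 5 of 5, whereas 0 of 7 tested T and B cell markers and 0 of 2 tested skeletal muscle markers were called.

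Other genes of the pathway were taken from a separate list of 80 names, of which 77 were in the table and 71 were tested. In cachectic mice 11 of them fell and 1 rose in edgeR, with a median log2 fold change of -0.28, while 8.63% of all tested genes were lower. Without control replicates 1, 2 and 3, the lower calls numbered 7, 5 and 1, of which 6, 4 and 1 were among the 11. Without cachexia replicates 2 and 3 they numbered 5 and 6, of which 4 and 5 were among the 11. Lower calls over all genes went down as well, from 1381 to 1086, 712 and 446 without control replicates 1, 2 and 3. They were 930 and 1142 without cachexia replicates 2 and 3. Bcl9l, which encodes a β-catenin coactivator, averaged 130.274 ± 8.81 CPM in controls and 55.0 ± 12.9 CPM in cachectic mice (SD, n = 3 in each group). It fell by 1.24 on the log2 scale (edgeR adjusted p = 0.00613), and its relative Bcl9 fell by 0.50 on the log2 scale. The other 9 that fell were Apc2 (-1.79) and Amer1 (-1.15), whose products bind β-catenin or APC, Dact1 (-1.06) and Dact2 (-2.22), whose products bind Dishevelled, the planar polarity gene Vangl1 (-0.70), the formin gene Daam1 (-1.06), the transcription factor genes Nfatc2 (-1.50) and Twist1 (-0.62), and the glypican gene Gpc4 (-1.16). Among genes with related functions, Apc (-0.18), Gsk3a (0.24), Gsk3b (-0.59), Csnk1a1 (0.04), Btrc (-0.21), Dact3 (-1.49), Dvl1 (0.02), Dvl2 (0.17) and Dvl3 (-0.41) did not pass, with adjusted p-values from 0.0594 to 0.932 in edgeR. Myc (0.57) and Tnfrsf19 (0.47), which can be β-catenin targets, had positive estimates. Ccnd1 (-1.54), Cd44 (-0.63), Wisp1 (-1.89) and Wisp2 (-2.07), which can also be targets, had negative ones. None of these passed, with adjusted p-values from 0.0885 to 0.65 in edgeR. The gene that rose was Sox17, which encodes an endothelial transcription factor that can antagonize β-catenin. It had 35.1, 34.6 and 28.2 CPM in controls and 114.776, 91.6 and 112.372 CPM in cachectic mice, a log2 fold change of 1.70 (adjusted p = 0.00132 in edgeR).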

How the data were processed

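RNA-seq of eWAT from 3 cachectic and 3 control mice was analyzed, with groups taken from the sample labels. After removal of low-quality reads, the authors used Hisat2 for alignment and featureCounts 1.5.0-p3 for counting, and deposited raw counts per gene. FPKM values, scaled by gene length and library, were deposited as well. Per the labels the submitters' processing notes name mm9, but 99.8% of the gene identifiers are in GENCODE M21 (GRCm38) and 98.3% of those have the same coordinates there, so coordinates are given as GRCm38. The deposited table of the authors' DESeq2 1.16.1 comparison (log2 fold changes and p-values) was not used.

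Tests used edgeR 4.0.16 in R 4.3.3 (filterByExpr, which required about 0.559 CPM in at least 3 libraries, TMM factors of 0.937 to 1.07, quasi-likelihood test without covariates, Benjamini-Hochberg adjustment over 16003 genes, threshold 0.05). CPM per kb is CPM divided by the deposited gene length. The totals of 14928766 to 18855546 counts and the biological coefficient of variation of 0.264 set the precision, and floors for 0 counts cover counting error only. The 2 groups are separate mice, and no pair of libraries was near-identical. Alternatives were RLE size factors, 2 other count filters, a replicate block, each mouse left out, protein-coding genes alone, DESeq2 1.42.0, limma-voom (limma 3.58.1), and limma on deposited FPKM after adding 1 or 0.1 and taking log2. The edgeR test with and without the block, DESeq2 and limma-voom were tested on simulated counts.

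The genes, the lists of other pathway genes and of 12 cell types, and the rule for naming were chosen with earlier results of these data known. By that rule, each called Wnt gene and the 2 most abundant genes of each role were given per mouse, and the other genes were given by estimate or highest count. Estimates for genes that overlap others are uncertain, since the library kit does not mark strand.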

Additional observations from a re-analysis of the deposited data

How the results depend on the processing

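Under the 16 alternatives, of which DESeq2 without control replicate 1 was added after the data were seen, Axin2, Fzd4 and Fzd5 were called lower in all 16, Rspo3 in 13, Wnt5a in 12, Sfrp1 in 11, and Wnt4 and Tcf7 in 8 of the 15 that tested them. All 8 kept a negative estimate. The number of lower Wnt genes (8) ranged from 4 to 8 with each mouse left out. The 8 without cachexia replicate 1 included 5 of the original 8. Wnt4, Rspo3 and Tcf7 were lost, and Fzd7, Apcdd1 and Nkd1 were added. The number was 4 without control replicate 1, control replicate 3 or cachexia replicate 2, and 5 without cachexia replicate 3. It was 13 in DESeq2 (beside 12.1% of all genes lower), 5 in limma on log2(FPKM + 1) (8.29%), and 9 in DESeq2 without control replicate 1 (9.95%), which also gave 1 higher gene instead of 0. Other pathway genes were lower in 17 with DESeq2 and in 1 to 10 with a mouse left out (1 without control replicate 3, 5 without control replicate 2 or cachexia replicate 2, 6 without cachexia replicate 3, 7 without control replicate 1). They were higher in 2 with DESeq2, 2 with DESeq2 without control replicate 1, and 1 to 2 with a mouse left out. Over all genes, leaving out a mouse gave 446 to 1142 lower and 382 to 1197 higher calls. The lowest counts were without control replicate 3 (446 and 382) and without control replicate 2 (712 and 600). Among genes not called, leaving out a mouse turned the sign of Wnt9b (-0.38 to 0.64), Wnt11 (-0.20 to 0.35), Porcn (-0.00068 to 0.40), Fzd1 (-0.038 to 0.28), Lrp5 (-0.20 to 0.13), Znrf3 (-0.32 to 0.22), Dkk3 (-0.19 to 0.17) and Axin1 (-0.16 to 0.11). DESeq2 without control replicate 1 gave Wnt11 -0.043, Lrp6 -0.00071, Znrf3 0.10 and Dkk3 0.16, and Wnt9b was -0.12 with the replicate block, -0.78 in limma-voom and -0.088 in limma on log2(FPKM + 0.1). Apart from the fewer samples or genes that some alternatives use, the cause was not tested.

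With the replicate block, 9 Wnt genes were lower, with Wnt5b and Fzd2 added and Wnt4 lost, while 968 of all genes (6.05%) were lower instead of 1381 and 913 were higher instead of 1440. Same-numbered mice share only a number, and their deviations from the group means had correlations of -0.0113 to 0.00849. Genes with few counts, such as Wnt4, Wnt10b and Tcf7, are limited by depth.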
